A study of Mus musculus with 6 samples.

Results

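The myeloid C-type lectin receptors are 9 mouse genes that encode surface receptors of macrophages, monocytes and related cells: Clec4a1, Clec4a2, Clec4a3, Clec4d, Clec4e, Clec4n, Clec5a, Clec7a and Clec12a. They were taken by name from 23394 measured genes, each read from whichever of its transcripts had the highest average level across the libraries. All 9 were among the 15619 genes that passed the filter on low values and were tested. The cells came from the livers of male C57BL/6 mice aged 3 months, which were given carbon tetrachloride (CCl4), a liver toxin that leads to fibrosis when it is given repeatedly, into the peritoneal cavity. Liver digests were passed over magnetic columns to select cells carrying F4/80, a macrophage surface antigen encoded by Adgre1. Messenger RNA was sequenced in 3 wild-type (WT) libraries and in 3 knockout (KO) libraries, and both groups had received CCl4. The labels name neither the gene deleted in the KO mice nor the cell type in which it was deleted, and there was no group without CCl4. They do not say that each library came from its own animal, so the p-values rest on the spread of these samples, which may be technical.

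These receptors share a C-type lectin-like fold and bind microbial glycans, glycolipids or products of dying cells. Some pass an activating signal through the kinase Syk and the adaptor Card9, either from a motif in their own tail or through the partner chains FcRγ (Fcer1g) and DAP12 (Tyrobp). Others carry an inhibitory motif, the ITIM, which recruits the phosphatases SHP-1 (Ptpn6) and SHP-2 (Ptpn11). In liver they are known from Kupffer cells, recruited macrophages, dendritic cells and neutrophils.

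All 9 genes lie on chromosome 6. The 6 genes named Clec4 lie within 368 kb, from 122921848 to 123289870 in the mouse build GRCm38. Clec5a lies at 40574894 to 40585821, Clec12a at 129342691 to 129365303 and Clec7a at 129461591 to 129472779. The 3 Clec4a genes were the most alike of the set. After alignment of their coding sequences, 76.7% of the aligned bases of Clec4a2 and Clec4a3 were identical, 73.4% of those of Clec4a1 and Clec4a3 and 72.6% of those of Clec4a1 and Clec4a2.

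The receptors differ in the tail that faces the cytoplasm, and 5 of them are shown because they have a tyrosine there that is part of, or stands where others have, a signalling motif. The stretches below are 18 bases of the GENCODE M21 transcripts on GRCm38, 5′ to 3′, with the codon of the tail tyrosine in capitals. They cover codons 5 to 10, or 13 to 18 for Clec7a.
Clec4a2: atcactTATgcagaagtg
Clec12a: attgttTATgcaaatctc
Clec4a1: aacattTATactgacgtg
Clec4a3: aacattTATgttaacacg
Clec7a: gatggaTATactcaatta
The stretches of Clec4a2 and Clec12a encode an ITIM. Clec4a1 and Clec4a3 have the same tyrosine at codon 7, but the translated window did not match the ITIM. The tyrosine of Clec7a, at codon 15, belongs to its activating hemITAM. The first 30 codons of Clec4d, Clec4e, Clec4n and Clec5a held no ITIM, and these receptors are known to signal through partner chains.

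None of the 9 receptors passed the test of KO against WT. The test was limma on log2(normalised count + 1), with p-values adjusted over all 15619 genes and called at an adjusted p under 0.05. It called 381 genes, or 2.44% of those tested, 326 with higher and 55 with lower levels in KO. Without adjustment, 3 of the 9 receptors were lower at a limma p under 0.05, Clec4a1, Clec4a3 and Clec12a, where 5.90% of all genes were lower and 18.0% differed in either direction. By edgeR's quasi-likelihood test the count of receptors called was also 0, where 1.81% of genes were called, and by DESeq2 it was 3, the same 3 genes, where DESeq2 called 9.21% of genes. The log2 change was below 0 for 8 of 9 receptors, as it was for 45.8% of all genes, and for 7 of 9 when values were scaled to macrophage core genes. The median log2 change was -0.54 over the 9 receptors and 0.05 over all genes.

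**Figure D1:**
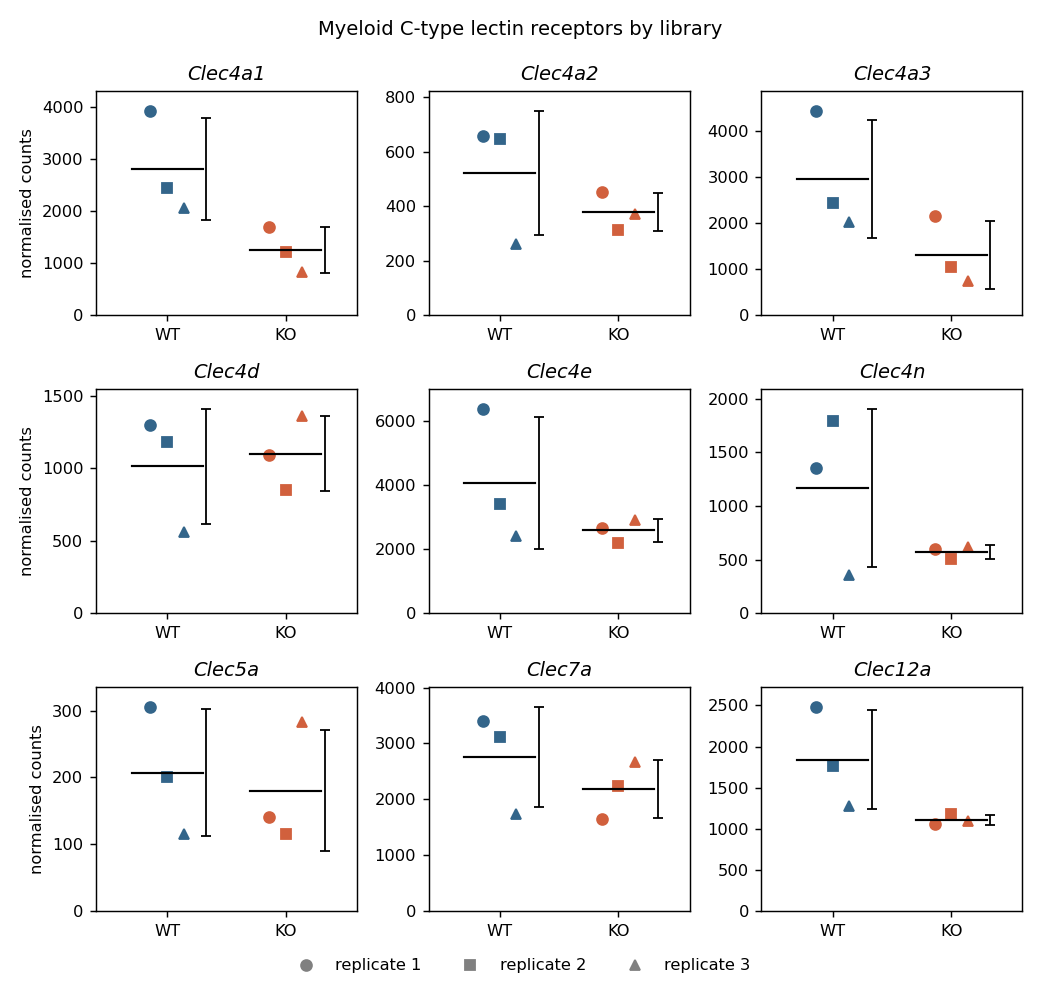
Normalised counts of the 9 receptors in each library, with the replicate given by the marker shape; the horizontal line is the group mean and the bar beside it the SD (n = 3 libraries). Only for Clec4a1 and Clec12a do all KO libraries lie below all WT libraries.

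The receptors with an ITIM, Clec4a2 and Clec12a, are described first, followed by Clec4a1 and Clec4a3, whose tails did not match it. Clec4a2, known as DCIR, had normalised counts of 657, 649 and 261 in WT replicates 1, 2 and 3 and of 451, 315 and 371 in the KO replicates. WT replicate 3 lay below every KO library, so the groups overlapped (log2 change -0.36, SE 0.35, limma adjusted p = 0.656). The 95% interval of its log2 change ran from -1.15 to 0.43. Of the 1212 windows of 50 bases in this transcript, 182 also occur in Clec4a4 or Clec4b1, so part of its count may belong to them.

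Clec12a, known as MICL, a receptor of uric acid crystals that damps inflammation, stood at 2478, 1768 and 1276 in WT and 1058, 1177 and 1096 in KO libraries. The KO values were close to each other and lay below all WT values. Groups did not overlap in this direction for 2 of the 9 receptors, Clec4a1 and Clec12a, and for 9.25% of all tested genes. The log2 change of Clec12a was -0.68 (SE 0.24, 95% interval -1.21 to -0.15, limma adjusted p = 0.168), and DESeq2's adjusted p was 0.0451. Over its 18 alternatives the adjusted p ranged from 0.0451 to 0.734.

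Clec4a1 and Clec4a3, known as DCIR4 and DCIR3, had the lowest log2 changes of the set. Clec4a1 stood at 3912, 2440 and 2058 in WT and 1703, 1213 and 824 in KO libraries, with no overlap. Its log2 change was -1.18 (SE 0.31, 95% interval -1.87 to -0.48, limma adjusted p = 0.0817). Clec4a3 stood at 4422, 2444 and 2024 in WT and 2150, 1050 and 742 in KO libraries. KO replicate 1 lay between WT replicates 2 and 3, so the groups overlapped (log2 change -1.24, SE 0.40, 95% interval -2.13 to -0.34, limma adjusted p = 0.136). Both passed with DESeq2, at adjusted p of 0.00416 and 0.0295. Both also passed limma without KO replicate 1, at -1.43 and -1.66 and adjusted p of 0.0348 and 0.0305, where 5.19% of all genes passed. Over all 18 alternatives the adjusted p ranged from 0.00416 to 0.251 for Clec4a1 and from 0.0150 to 0.380 for Clec4a3, and the log2 change stayed below 0 for both.

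The levels of Clec4a1 and Clec4a3 moved together from library to library. The log2 ratio of Clec4a1 to Clec4a3 ranged from -0.34 to 0.21 over the 6 libraries, with an SD of 0.20. This was the smallest SD among the 36 pairs of receptors, followed by 0.25 for Clec4e with Clec12a. No 50-base window of either transcript occurs in another gene, so reads of that length would not be shared between them.

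Their promoters are shown because these neighbours had such like profiles, and those of Clec12a and Clec4d for comparison. Each is the 250 bases before the transcription start in RefSeq's promoter table (GRCm38.p6), all from the plus strand, 5′ to 3′. Capitals mark GAGGAA on either strand, the core bound by the myeloid factor PU.1.
Clec4a1 (chr6:122921598-122921847): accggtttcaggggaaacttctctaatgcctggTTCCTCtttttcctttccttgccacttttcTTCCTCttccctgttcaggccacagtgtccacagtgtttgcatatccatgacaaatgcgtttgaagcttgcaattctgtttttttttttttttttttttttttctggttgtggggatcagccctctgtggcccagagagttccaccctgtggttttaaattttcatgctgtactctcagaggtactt
Clec4a3 (chr6:122952394-122952643): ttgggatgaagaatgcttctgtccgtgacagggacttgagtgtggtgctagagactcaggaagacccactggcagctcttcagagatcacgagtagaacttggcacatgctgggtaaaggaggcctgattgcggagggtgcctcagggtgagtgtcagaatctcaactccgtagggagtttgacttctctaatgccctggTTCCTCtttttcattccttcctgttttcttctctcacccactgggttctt
Clec12a (chr6:129349994-129350243): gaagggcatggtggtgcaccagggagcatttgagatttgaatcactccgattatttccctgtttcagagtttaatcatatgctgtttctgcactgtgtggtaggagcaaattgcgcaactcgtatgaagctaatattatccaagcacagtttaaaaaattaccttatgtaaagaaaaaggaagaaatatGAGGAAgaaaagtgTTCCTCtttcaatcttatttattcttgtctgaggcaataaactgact
Clec4d (chr6:123261857-123262106): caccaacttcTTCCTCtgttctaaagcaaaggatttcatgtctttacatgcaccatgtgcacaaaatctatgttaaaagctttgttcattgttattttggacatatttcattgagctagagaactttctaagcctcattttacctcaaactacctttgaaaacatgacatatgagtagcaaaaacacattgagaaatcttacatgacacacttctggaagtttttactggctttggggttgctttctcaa
Promoters of 8 of the 9 receptors were matched, and Clec4n had no entry. The promoter of Clec4a3 has 2 entries, and the one printed ends at the start of the transcript used here. In a local alignment, Clec4a1 and Clec4a3 shared a stretch in which 48 of 51 aligned bases were identical. It holds a GAGGAA match in both genes, and it lies at -234 to -182 relative to the start of Clec4a1 and at -68 to -16 relative to that of Clec4a3. The other Clec4a3 entry, which ends at an earlier start of the gene, aligned with Clec4a1 over 8 bases. No other pair of receptor promoters aligned over as many bases as the stretch of 51. GAGGAA occurs in 23.3% of all promoter windows of this length. Among the receptors it was absent from the window of Clec4a2 and from the other window of Clec4a3, and present in the rest. Patterns of NF-kB, AP-1, C/EBP and the TATA box were searched in the same windows. NF-kB matched only Clec4a1 (45.8% of all windows) and AP-1 only Clec12a (6.75%). C/EBP matched Clec4e and Clec12a (9.56%), and the TATA box Clec4a2, Clec4e and Clec5a (12.4%). A match describes the letters and does not show that a factor binds there.

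None of the activating receptors passed. Clec7a, the β-glucan receptor Dectin-1, stood at 3410, 3119 and 1741 in WT and 1643, 2233 and 2669 in KO libraries, with overlap (log2 change -0.31, SE 0.28, 95% interval -0.94 to 0.33, limma adjusted p = 0.634). Clec4e, known as Mincle, a receptor of mycobacterial glycolipid and of a protein released by dead cells, stood at 6367, 3408 and 2413 in WT and 2659, 2198 and 2918 in KO. Its groups overlapped as well, because WT replicate 3 lay among the KO libraries (log2 change -0.54, SE 0.32, 95% interval -1.26 to 0.18, limma adjusted p = 0.429).

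Clec4n, the α-mannan receptor Dectin-2, showed the widest spread among the WT libraries relative to its mean. It stood at 1353, 1788 and 354 in WT and at 596, 502 and 619 in KO. WT replicate 3 was the lowest of all 6 libraries (log2 change -0.74, SE 0.50, 95% interval -1.86 to 0.39, limma adjusted p = 0.498). Without WT replicate 3 the log2 change was -1.45 with a limma adjusted p of 0.0360, and 1.11% of all genes passed in that fit. Without WT replicate 2 it was -0.28, at 0.826.

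Clec4d, known as MCL or Dectin-3, which pairs with Mincle and with Dectin-2, was the only receptor with a log2 change above 0. It stood at 1295, 1179 and 562 in WT and 1091, 848 and 1361.5 in KO libraries. The groups overlapped, with WT replicate 3 the lowest and KO replicate 3 the highest library (log2 change 0.18, SE 0.32, 95% interval -0.53 to 0.90, limma adjusted p = 0.824). Without WT replicate 3 the log2 change was -0.19, so its sign rested on that library. Clec5a, the DAP12-coupled receptor MDL-1, stood at 305, 201 and 116 in WT and 142, 116 and 283 in KO (log2 change -0.20, SE 0.43, 95% interval -1.17 to 0.76, limma adjusted p = 0.861). It was the least abundant receptor, with 95 to 335 reads per library, and its sign turned to 0.13 without WT replicate 1 and to 0.06 without KO replicate 2.

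**Figure D2:**
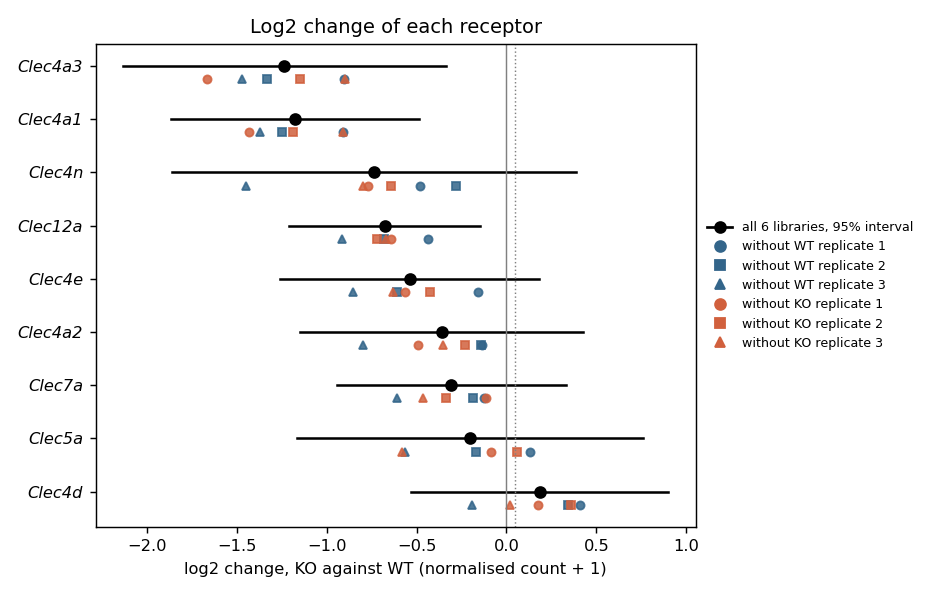
Log2 change of each receptor in KO against WT: the black point and line give the estimate from all 6 libraries with its 95% interval, and the small markers below give the estimate without each library in turn. The solid line marks 0 and the dotted line the median of all genes, 0.05. The intervals of Clec4a1, Clec4a3 and Clec12a lie below 0, and the estimates of Clec4d and Clec5a fall on both sides of 0.

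Much of the spread lay within the WT group, but the KO libraries of some receptors spread as well. In KO, Clec4a1 ran from 824 to 1703, Clec4a3 from 742 to 2150 and Clec5a from 116 to 283. WT replicate 3 was the lowest WT library for 9 of 9 receptors, and for 36.2% of all tested genes. WT replicate 1 was the highest of the 6 libraries for 7 of 9 receptors, and for 20.9% of all tested genes. Summed over the receptors, the level was 13243, 9607 and 5948 normalised counts per kb in WT replicates 1, 2 and 3 and 6557, 5169 and 5692 in the KO replicates. The geometric mean of 8 core macrophage genes (Adgre1, Csf1r, Cd68, Fcgr1, Mertk, Cd14, Spi1 and Aif1) varied as well, at 3321, 4041 and 2048 in WT and 2369, 2581.5 and 2843 in KO. WT replicate 3 was thus also the lowest library by this mean, though not for each of its genes. Of the 8 core genes, 5 had a log2 change below 0 and 3 above. For Csf1r and Spi1 every KO library lay below every WT library, as for 9.25% of all tested genes. For Cd14 every KO library lay above every WT library. In bulk samples, fewer cells of a type and less RNA per cell cannot be told apart.

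Set against these core genes within each library, all 9 receptors overlapped between groups, Clec4a1 and Clec12a included, which did not overlap as normalised counts. Clec4a1 stood at 0.24, -0.73 and 0.01 relative to them (log2) in WT, and at -0.48, -1.09 and -1.79 in KO. WT replicate 2 lay below KO replicate 1. Clec4a3 stood at 0.41, -0.72 and -0.02 in WT and -0.14, -1.30 and -1.94 in KO. With all genes scaled to the core genes, the log2 changes of Clec4a1 and Clec4a3 were -0.96 and -1.02, at limma adjusted p of 0.144 and 0.105, while the median of all genes moved to 0.26. Under this scaling Clec5a was at 0.02, against -0.20 before, and 862 genes were called higher and 36 lower.

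Levels were compared between receptors per kb of the highest protein-coding transcript, because the highest transcript of Clec4e keeps an intron and that of Clec4n is marked for decay. Clec4a3 was first with a mean of 1645 ± 1000.4 normalised counts per kb (SD, n = 6 libraries), followed by Clec4a1 with 1299.7 ± 699.6. Clec4e had 1171 ± 508, Clec7a 1084 ± 318, Clec4d 798 ± 228 and Clec4n 705 ± 461. Clec12a had 589.7 ± 222 and Clec4a2 357 ± 134. Each of these overlapped with its neighbour in the order. Clec5a came last with 51.7 ± 22.4, and its range of 30.8 to 81.4 lay below that of Clec4a2, 207 to 521. Clec4a1 was 2nd in WT and 5th in KO by mean level, and Clec4d was 6th in WT and 4th in KO.

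Relative to the other receptors, Clec4d was higher in every KO library than in any WT library. Its share of the receptors' summed level per kb was 7.39%, 9.28% and 7.14% in WT and 12.6%, 12.4% and 18.1% in KO libraries. The exact two-sided permutation test gave p = 0.1, the smallest that 3 against 3 libraries allow, and 0.514 after adjustment over the 9 receptors. The share of Clec4a3 was 23.8% ± 3.68 in WT and 17.0% ± 7.69 in KO (SD, n = 3 each), and that of Clec4a1 was 19.2% ± 2.96 and 13.7% ± 3.88, both with overlapping groups. The share of Clec12a was 7.80% ± 0.67 and 7.75% ± 1.33.

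**Figure D3:**
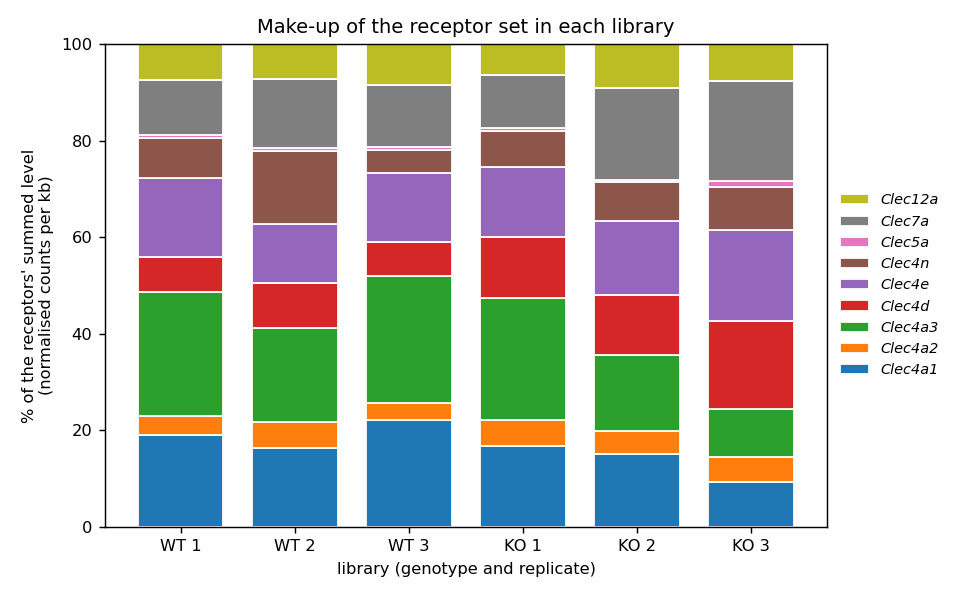
Share of each receptor in the summed level of the 9 receptors (normalised counts per kb of the highest protein-coding transcript), by library; bars start at 0 and each adds up to 100%. The Clec4d segment takes 7.14% to 9.28% in the WT libraries and 12.4% to 18.1% in the KO libraries.

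The ratios of receptors within a library do not depend on how the libraries were scaled. For 8 of the 36 pairs of receptors the log2 ratios did not overlap between the groups, and 7 of these 8 pairs included Clec4d. These 7 share the same Clec4d values, so they are not separate observations. How often pairs of other genes lay apart was not counted. The log2 ratio of Clec4a1 to Clec4d ranged from 1.05 to 1.87 in WT and from -0.72 to 0.64 in KO, a difference of -1.36 between the means. That of Clec4a3 to Clec4d was 1.56 ± 0.44 in WT and 0.14 ± 0.94 in KO (SD, n = 3 each). These are ratios of normalised counts and not of levels per kb, so their size also holds the lengths of the transcripts, while their difference does not. The log2 ratio of Clec4d to Clec4e, its partner in a shared complex, was -1.98 ± 0.40 in WT and -1.25 ± 0.14 in KO. The remaining pair was Clec4a1 with Clec5a. Each of the 8 had an exact two-sided permutation p of 0.1, the smallest possible, and an adjusted p of 0.45 over the 36 pairs, so no pair passed.

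The transcripts of each gene gave like changes. Log2 changes ran from -0.73 to -0.59 over 4 transcripts of Clec12a, from -0.47 to -0.36 over 5 of Clec4a2, and from -0.55 to -0.33 over 7 of Clec4e. They ran from -0.78 to -0.26 over 5 transcripts of Clec4n and from -0.40 to -0.14 over 4 of Clec5a. For Clec7a the 4 transcripts lay between -0.31 and -0.30. Reads of a shared exon appear to be counted for every transcript that holds it, since many transcripts of a gene had nearly equal values, so these are not independent measurements.

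Other genes of the Clec4 cluster on chromosome 6 were low. Clec4a4, known as DCIR2, an ITIM receptor of dendritic cells, had 124 reads over the WT and 22 over the KO libraries, at 36.7 ± 13.5 and 8.48 ± 4.92 normalised counts. Its log2 change of -2.07 did not pass (SE 0.68, limma adjusted p = 0.142). Clec4b1 had a log2 change of -0.40 at a limma adjusted p of 0.785. Clec4b2 had 0 reads in WT and 2 in KO and was not tested.

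The signalling partners were read from the same fit, over 27 adaptors, kinases, phosphatases and downstream factors, all of them tested. None of these 27 passed with limma, where 0.352% of all genes were called lower, while 1 passed with edgeR and 11 with DESeq2, which called 1.81% and 9.21% of all genes. The log2 change was below 0 for 22 of 27, with a median of -0.51, or for 17 of 27 with a median of -0.29 under the scaling to core genes. At an unadjusted limma p under 0.05, 13 were lower, where 5.90% of all genes were, and 0 were higher. The 11 whose groups did not overlap were all lower in KO, where 9.25% of all genes were.

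Pik3ap1, an adaptor that recruits PI3-kinase, had the smallest p of the 27. It stood at 2629, 2879 and 1801 in WT and 1293, 1243 and 1290 in KO libraries, with no overlap and KO values close to each other. Its log2 change was -0.91 (SE 0.20, limma adjusted p = 0.0527), and edgeR's adjusted p was 0.0481. Under the scaling to core genes the log2 change was -0.69, at a limma adjusted p of 0.439. With 1 library left out, Pik3ap1 passed limma in 1 of 6 fits, at adjusted p of 0.0381 to 0.179. Lcp2, the adaptor SLP-76, stood at 5922, 5430 and 3926 in WT and 3261, 2590 and 2542 in KO (log2 change -0.85, limma adjusted p = 0.0705). Lyn, a Src family kinase, stood at 6552, 5808 and 4687 in WT and 3608, 3327 and 2883 in KO (log2 change -0.79, limma adjusted p = 0.0714). The groups of both genes lay apart. Prkcd, a protein kinase C that acts between Syk and Card9, stood at 10437, 8568 and 7281 in WT and 5877, 4143 and 4303 in KO (log2 change -0.88, limma adjusted p = 0.0786). The 11 partners called by DESeq2 were all lower and included these 4 genes, Fcer1g, Card9, Plcg2 and Ptpn6. Without KO replicate 1, limma called 6 of the 27 and 5.19% of all genes.

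The partners of direct contact and some genes downstream of them had log2 changes on both sides of 0. Whether these changes differed in size was not tested. Fcer1g, the partner chain of Mincle and Dectin-2, averaged 8014 ± 2089 in the WT group against 4762 ± 1045 in the KO group (SD of 3 libraries), a log2 change of -0.74 at a limma adjusted p of 0.154. Tyrobp, the partner chain of Clec5a, stood at 9093 ± 2040 and 6707 ± 981 (log2 change -0.42, limma adjusted p = 0.397), and Hcst, which encodes its other partner DAP10, had a log2 change of 0.38 at 0.601. Syk and Card9 had log2 changes of -0.56 and -0.78, at limma adjusted p of 0.271 and 0.123. The phosphatase genes Ptpn6 and Ptpn11, which act at ITIMs, had log2 changes of -0.75 and -0.18, at 0.117 and 0.647. Egr2 and Egr3, transcription factor genes induced by Syk signalling, had log2 changes of 0.54 and 0.11 and limma adjusted p of 0.384 and 0.942.

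**Figure D4:**
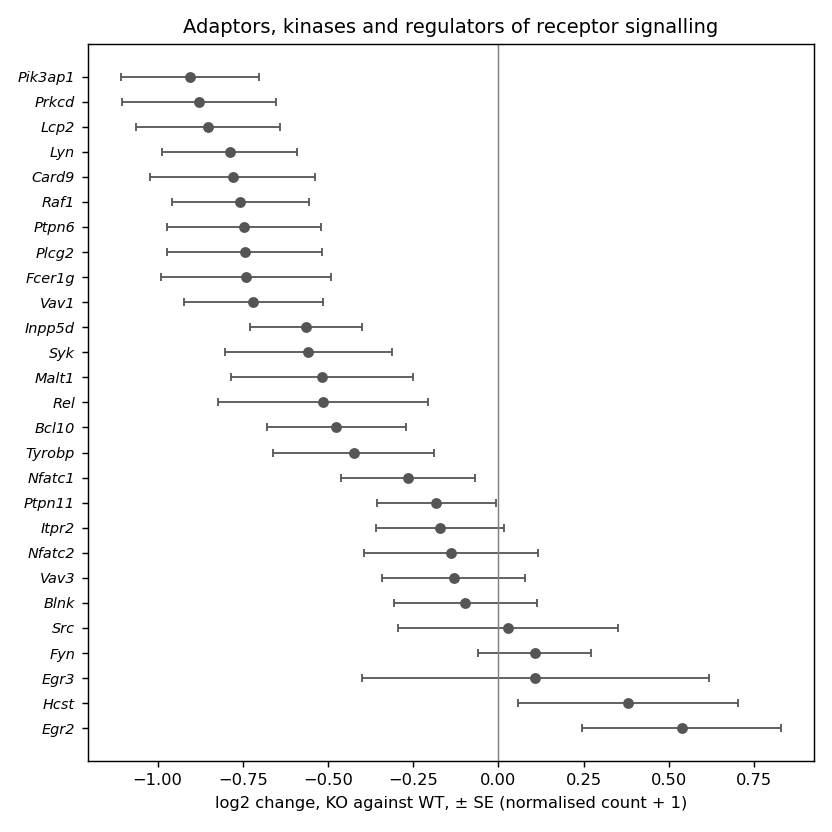
Log2 change in KO against WT, with its SE, of the 27 genes of receptor signalling, ordered by size. The estimates of 22 of the 27 lie below 0, with Pik3ap1 the lowest at -0.91.

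The rest of the C-type lectin family had a median log2 change above 0, though 13 of its 42 tested genes were below 0. Of 46 listed genes 42 were tested, 29 were above 0 with a median of 0.31, or 33 with a median of 0.53 under the scaling to core genes, and 3 rose, where 2.09% of all genes were called higher. Clec4g, the LSECtin of sinusoidal endothelium, rose from 5052, 7454 and 3339 in WT to 10873, 18517 and 13797 in KO (log2 change 1.49, SE 0.32, limma adjusted p = 0.0480). Asgr1 and Asgr2, the subunits of the asialoglycoprotein receptor of hepatocytes, rose by 1.70 (SE 0.32) and 2.25 (SE 0.34) on the log2 scale, at limma adjusted p of 0.0327 and 0.0190. The call of Clec4g was also lost with edgeR, voom, TMM factors in limma, no filter on low values or summed transcripts, at adjusted p of 0.0713, 0.0586, 0.0588, 0.0626 and 0.0585. Clec4g and Asgr1 each kept their call in 2 of 6 fits without 1 library and Asgr2 in 5 of 6, with adjusted p of up to 0.168, 0.148 and 0.0979. Clec4f, a lectin of Kupffer cells, stood at 3155, 3274 and 3142 in WT and 4727, 9342 and 7476 in KO and did not pass (limma adjusted p = 0.0537). Whether the receptors as a set differed from the rest of the family was not tested.

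Markers of other cells moved with genotype beside these values. All 10 hepatocyte markers were above 0 and 5 rose, with summed normalised counts of 23791 to 73196 in WT and 88431 to 162382 in KO. Of 10 endothelial markers 10 were above 0 and 5 rose, Clec4g among them, with summed levels of 24903 to 45909 and 52902 to 102573. All 10 markers of non-classical monocytes were below 0 and 4 fell, Treml4, Cx3cr1, Itgal and Adgre4, with summed levels of 63143 to 96861 in WT and 23318 to 52947 in KO. Over all tested genes, limma called 2.09% higher and 0.352% lower in KO, and 45.8% were below 0. The counts of marker calls depended on the fit. The 5 endothelial calls became 1 with edgeR, TMM factors in limma or summed transcripts, 2 with voom and 3 with no filter. They became 0 without WT replicate 1, WT replicate 3, KO replicate 2 or KO replicate 3, and 8 without KO replicate 1. The 4 non-classical monocyte calls became 2 with edgeR or no filter and 0 with summed transcripts. They became 0 without WT replicate 2, KO replicate 2 or KO replicate 3. With WT replicate 1 left out there was 1 call, and with KO replicate 1 left out there were 6. The 5 hepatocyte calls became 0 when KO replicate 3 was left out and 8 when KO replicate 1 was. Over all genes, the fit without KO replicate 1 called 640 higher and 170 lower. The fit without KO replicate 3 called 7 higher and 1 lower. No marker of these lists had 0 reads in either group. Their part in the values of Clec4a1, Clec4a3, Clec12a, the signalling partners, Clec4g, Asgr1 and Asgr2 was not tested.

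None of the 12 Kupffer cell, 10 classical monocyte, 10 dendritic cell, 10 neutrophil or 10 lymphocyte markers passed, with median log2 changes of 0.03, -0.48, -0.28, -0.35 and 0.10. The Kupffer cell list had 6 markers below and 6 above 0. Its 2 most abundant, Marco and Cd5l, had log2 changes of -1.63 and -0.67 at limma adjusted p of 0.102 and 0.442. Clec4f, also of this list, was at 1.12. None of the 8 macrophage core genes passed either, at a median of -0.22, and all 8 were read in every library. Of the stellate and cholangiocyte markers 1 of 10 each rose, Col1a1 and Spp1, where 2.09% of all genes were called higher. The medians of these lists were 0.66 and 0.96. Neither list had a call without WT replicate 1, KO replicate 2 or KO replicate 3. None of 7 tested erythroid genes passed, at a median of 3.20. At an unadjusted limma p under 0.05, 6 of the 7 were higher, where 18.0% of all genes differed in either direction. All 7 were called higher under the scaling to core genes and 5 with the replicate block, where 862 and 452 of all genes were. Their summed normalised counts were uneven, at 2221 to 33376 in WT and 30742 to 268741 in KO.

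The genes whose levels followed the mean standardised profile of the 9 receptors most closely were Psmd2, a proteasome subunit, Vti1a, a SNARE protein, Snd1, a nuclease, Gk, glycerol kinase, and Rab31, a small GTPase. They had the 5 highest Pearson coefficients of 10969 genes, from 0.983 to 0.990 over the 6 libraries. This ranking describes likeness over few libraries that share their genotype groups and scaling. Psmd2, the first, stood at 2494, 2306 and 1733 in WT and 1944, 1744 and 1977 in KO, with the order of WT replicates that most receptors had. The mean profile itself was 1.30, 0.68 and -0.76 in WT and -0.31, -0.69 and -0.23 in KO, in SD units, so it overlapped between the groups.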

How the data were processed

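The 6 RNA libraries came from F4/80-selected cells. The submitters' processing notes name the build GRCm38.p4 and, with no order, DESeq 1.8.3, HTSeq 0.5.3, STAR 2.4.0k, bcl2fastq 2.17 and SAMtools. The library kit kept strand, per the labels' protocols. The strand setting of the counting, the annotation release and the handling of multimapping reads were not stated there. The deposited signal is a normalised count per transcript; the values show division by 1 factor per library. 100% of values were whole multiples of the smallest one (tolerance 0.001), so whole reads were recovered, 10790842 to 22157238 per library over 1 transcript per gene. GENCODE M21 matched 78332 of 79382 transcripts and 23394 genes. 1050 transcripts were not used. No other gene's exons overlapped the receptors' exons.

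limma 3.58.1 with a trended prior was run on log2(value + 1), genotype as the only term, over the 15619 genes kept by filterByExpr, with Benjamini-Hochberg adjustment. Pairs and shares used exact permutation tests over libraries. edgeR 4.0.16, which called 282 genes on the recovered reads, and DESeq2 1.42.0 were alternatives, with other scalings, pseudocounts of 0.5 and 5, filters, transcript choices, a block for replicate number and 1 library left out at a time. In simulated KO against WT data of 15619 genes, 50 genes were given a log2 change of each size: limma found 18% at size 1, 62% at 2, 80% at 3 and 92% at 4, with 8 false calls.

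The receptors and gene lists were chosen with earlier results of these data known. One gene of the signalling list is not reported here, and the list's counts leave it out. The text names all 9 receptors, called genes and the 4 of smallest p per family or partner list, and the 5 genes of most like profile with a mean CPM of at least 5. The direct partners, partners called by DESeq2, Egr2, Egr3, Cd207, Clec4a4, Clec4b1 and Clec4b2 were named after their values were seen, as were called markers. Of the 2 most abundant markers per list that the rule took, only those called and those of the Kupffer cell and macrophage core lists are named.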

Additional observations from a re-analysis of the deposited data

How the results depend on the processing

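Over 18 alternatives, 150 of 162 log2 changes of the 9 receptors kept their direction and their side of the threshold, 8 newly passed and 4 turned sign. Some of these directions were fixed in advance. The filters and the replicate block cannot move a log2 change, only its adjusted p. The transcript choices cannot move it for Clec4a1 and Clec4d, which have 1 transcript each. The count of 150 therefore overstates how stable the directions were. DESeq2 called 3 receptors, with log2 changes of -1.22 for Clec4a1, -1.23 for Clec4a3 and -0.77 for Clec12a. It called 1409 genes, 959 higher and 450 lower, and 11 partners. It also called 9 other lectins, 7 higher and 2 lower, the latter being Cd207 and Clec4a4. With the replicate block 2 receptors passed, Clec4a1 at -1.18 and Clec4a3 at -1.24, and 5 other lectins, and 539 genes in place of 381. Deviations from the group means of same-numbered libraries correlated at -0.0148, 0.0878 and -0.142, and only the libraries numbered 2 correlated best with their own number. The highest correlation, 0.1425, was that of WT replicate 3 with KO replicate 1. With 3 libraries per group, these values cannot show whether replicate numbers pair the samples. Scaled to the macrophage core genes, 898 genes and 9 other lectins passed and Clec5a was at 0.0167. With transcripts summed, 240 genes passed. With edgeR, voom, TMM factors in limma or a pseudocount of 5, 1 signalling partner passed, Pik3ap1, in place of 0. Leaving out 1 library gave 8 to 810 genes, 0 to 2 receptors, 0 to 6 partners and 0 to 8 other lectins. The log2 changes then ran from -1.43 to -0.91 for Clec4a1, -1.66 to -0.90 for Clec4a3, -0.19 to 0.41 for Clec4d, -1.45 to -0.28 for Clec4n and -0.58 to 0.13 for Clec5a. The fewest genes, 8, passed without KO replicate 3. The cause of these differences was not tested. Because a log2 change of 1 was mostly missed in simulation, a receptor that did not pass is not shown to be equal between the groups.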
